A study of Mus musculus with 108 samples.

Results

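Hey1 and 9 further genes of the Notch pathway were followed cell by cell in cultured mouse germline stem cells. The 10 genes were found by symbol among the 26218 genes of the table: the target genes Hey1, Hey2, Heyl and Hes1, the receptors Notch1, Notch2 and Notch3, and the ligands Jag1, Jag2 and Dll1. Hey1 was singled out because it had differed between the same lines that are compared here, so every contrast of the members between the line types is given as a description, with no test. Each sample was 1 cell. The cells came from 4 culture lines, which are called by their title prefixes: 30 cells of GSC1, 24 of GSC2, 30 of GSCLC1 and 24 of GSCLC4. GSCs are germline stem cells, the cultured form of the spermatogonial stem cells of the testis, and GSCLCs are germline stem cell-like cells that were derived from pluripotent stem cells. All cells carried the reporter named AcrAct_EGFP on the background 129/SvJcl x C57BL/6, and all 4 lines were kept in the same medium with the growth factors GDNF, bFGF, LIF and EGF. By the labels, GSC2 was made from testes of postnatal day 7 that were independent of the other line. GSCLC4 came from reconstituted testes held at 34 °C for 3 weeks. The origin of GSC1 and GSCLC1, the clonality of the lines and the number of animals behind each are not given in the sources used here. Cells of 1 line share a culture and are not replicates, so the line was the unit of every comparison, with 2 lines per type.

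Notch signalling passes between cells that touch. A Jagged or Delta-like ligand on one cell binds a Notch receptor on its neighbour, the receptor is cut by an ADAM protease and by gamma-secretase, and the freed intracellular domain joins the DNA-binding protein RBPJ and a Mastermind coactivator to switch on target genes. The best known targets are the Hes and Hey genes, which encode basic helix-loop-helix repressors, and Hes1 and Hey1 also answer to other signals in many tissues. In the testis, JAG1 on germ cells is known to activate Notch receptors on Sertoli cells, where HES1 and HEY1 repress Gdnf, the growth factor that maintains spermatogonial stem cells.

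The values were RPM, reads scaled to a common library size, from SC3-seq, which sequences the 3′ end of each polyadenylated transcript. For that reason RPM was not divided by gene length. Estimated depth was 2.00 M to 6.04 M reads per cell, so that 1 read was worth between 0.166 and 0.500 RPM. The germ cell identity of the lines was checked first. Of 15 germ cell markers, 13, 14, 15 and 13 had means of 5 RPM or more in GSC1, GSC2, GSCLC1 and GSCLC4, and none was at 0 in any line. Ddx4, an RNA helicase of germ cells, had means of 765, 918, 986 and 956 RPM, and Dazl, an RNA-binding protein of germ cells, 3193 to 3521 RPM. Gfra1, a receptor subunit for GDNF, and Zbtb16, a transcription factor of undifferentiated spermatogonia, had 204 to 266 RPM and 54.1 to 86.4 RPM. A single cell of GSC1 differed from the rest, having 5748 detected genes against a line median of 8791 and with 13880 RPM of the mesenchymal gene Vim. Ddx4 was at 300 RPM in this cell, against the line mean of 765 RPM. The cell had 0 RPM of Hey1, Hes1, Jag1, Notch1 and Notch2. No 2 cells had identical values. Serial numbers in the titles did not overlap between lines. If they follow the order of processing, that order cannot be told apart from the line. The serial numbers of GSC1 formed 2 runs, from 65 to 80 and from 129 to 150.

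The members differed in level by several orders of magnitude. Hes1 and Jag1 had the highest means, up to 126.8 and 106.6 RPM, and Hey1 reached the same range only in the GSCLC lines. Notch1, Notch2 and Jag2 lay between 12.3 and 49.6 RPM in every line. Hey2 was under 10 RPM in every line, and Heyl, Notch3 and Dll1 stayed under 1.5 RPM. RPM levels of different genes are set side by side here as shares of 3′ reads.

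**Figure D1:**
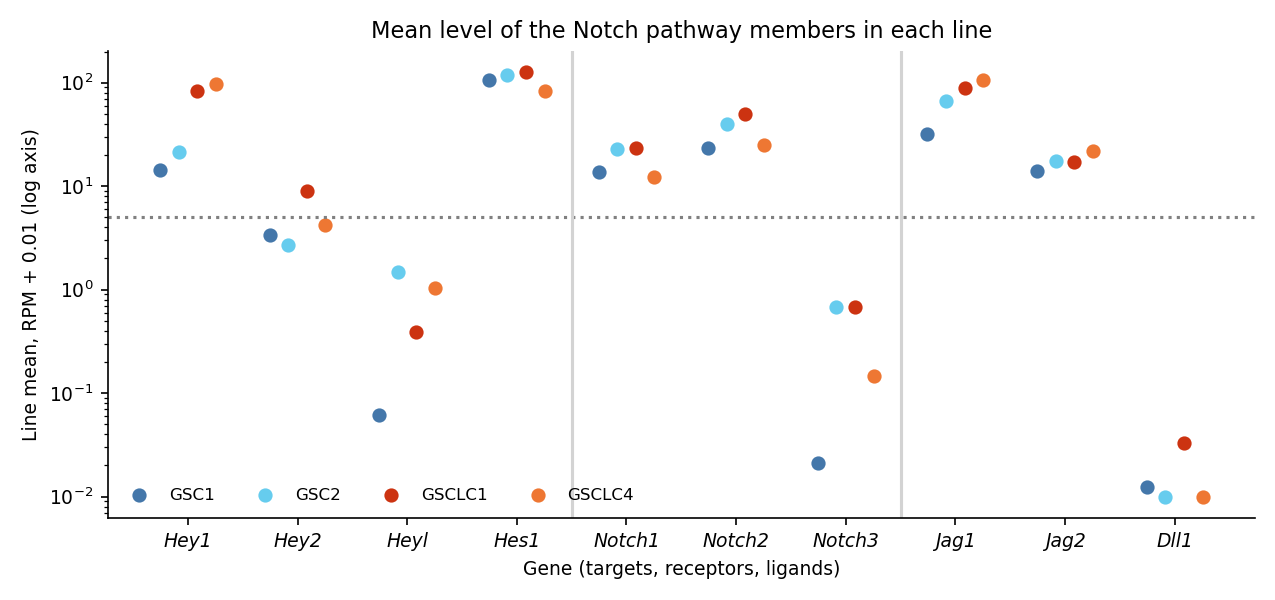
Mean RPM over the cells of each line, on a log axis after adding 0.01, for the 4 targets, 3 receptors and 3 ligands, with 1 point per line. The dotted line marks 5 RPM, the level that 2 lines had to reach for a gene to be tested: Hey1 separates GSCLC1 and GSCLC4 (84.0 and 96.7 RPM) from GSC1 and GSC2 (14.2 and 21.4 RPM), while the points of Hes1 lie together between 82.9 and 126.8 RPM.

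Hey1 (chromosome 3, 8663359 to 8667038, a protein-coding gene) encodes a repressor of the Hairy and enhancer-of-split related family. Its cells ranged from 0 to 103 RPM in GSC1 with a median of 0, and from 0 to 130.6 RPM in GSC2 with a median of 0.56. In GSCLC1 they ranged from 0 to 340 RPM with a median of 44.9, and in GSCLC4 from 0 to 273 RPM with a median of 89.2. The ranges of the cells overlapped widely between all lines, and each line held cells with 0 RPM, but the medians of the GSCLC lines were far higher. The line means were 14.2 and 21.4 RPM in the GSC lines and 84.0 and 96.7 RPM in the GSCLC lines. Both GSCLC means lay above both GSC means, and the lower GSCLC mean was 3.92 times the higher GSC mean. The difference was 2.30 ± 0.36 (SE, n = 2 lines per type) on the scale of log2(mean RPM + 1), which understates changes of low genes. In the 2 runs of GSC1 cells taken alone, the mean of Hey1 was 10.3 and 17.3 RPM, each below both GSCLC means. These are the cells on which Hey1 was chosen, so nothing is read from that order.

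Hey1 differed between lines both in how many cells had it and in how much those cells had. Hey1 was above 0 RPM in 14 of 30 GSC1 cells (46.7%), 13 of 24 GSC2 cells (54.2%), 24 of 30 GSCLC1 cells (80%) and 21 of 24 GSCLC4 cells (87.5%). When each cell was thinned to the depth of the shallowest, the expected shares were 41.1%, 52.5%, 77.8% and 87.5%, in the same order. At a level of 5 RPM or more, which leaves out cells with a few reads, the shares in the GSC lines were 23.3% (GSC1, exact Clopper-Pearson 95% interval 9.93% to 42.3%) and 33.3% (GSC2, 15.6% to 55.3%). In the GSCLC lines they were 66.7% (GSCLC1, 47.2% to 82.7%) and 87.5% (GSCLC4, 67.6% to 97.3%). The intervals cover counting error only. The intervals of the GSC lines overlapped each other, as did those of the GSCLC lines. GSC2 and GSCLC1, the neighbours across the types, also had intervals that overlapped in part, whereas those of GSC1 and GSCLC1 did not. Among cells with at least 5 RPM the median level of Hey1 was 51.9 and 65.8 RPM in the GSC lines, against 117.6 and 92.1 RPM in the GSCLC lines. No single cell carried a line mean: the highest cell held 24.1% and 25.4% of the summed RPM in the GSC lines and 13.5% and 11.8% in the GSCLC lines.

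Hes1 (chromosome 16, 30065357 to 30067796), the most widely expressed Notch target of the set, did not follow the line order of Hey1. Its cells reached from 0 to 605.5 RPM in GSC1, from 0.28 to 391 RPM in GSC2, from 0 to 551 RPM in GSCLC1 and from 0 to 394 RPM in GSCLC4. The medians were 72.1, 83.4, 85.1 and 40.5 RPM in that order, and the means 105.9, 117.3, 126.8 and 82.9 RPM. The GSCLC lines held both the highest and the lowest mean. The difference between the types was -0.12 ± 0.27 (log2, SE). It was positive, at 0.18, without GSCLC4 and at 0.06 with the GSC1 cells of the lower serial numbers alone. The share of cells with at least 5 RPM of Hes1 was 73.3%, 87.5%, 80% and 83.3%, with intervals that overlapped between all 4 lines.

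**Figure D2:**
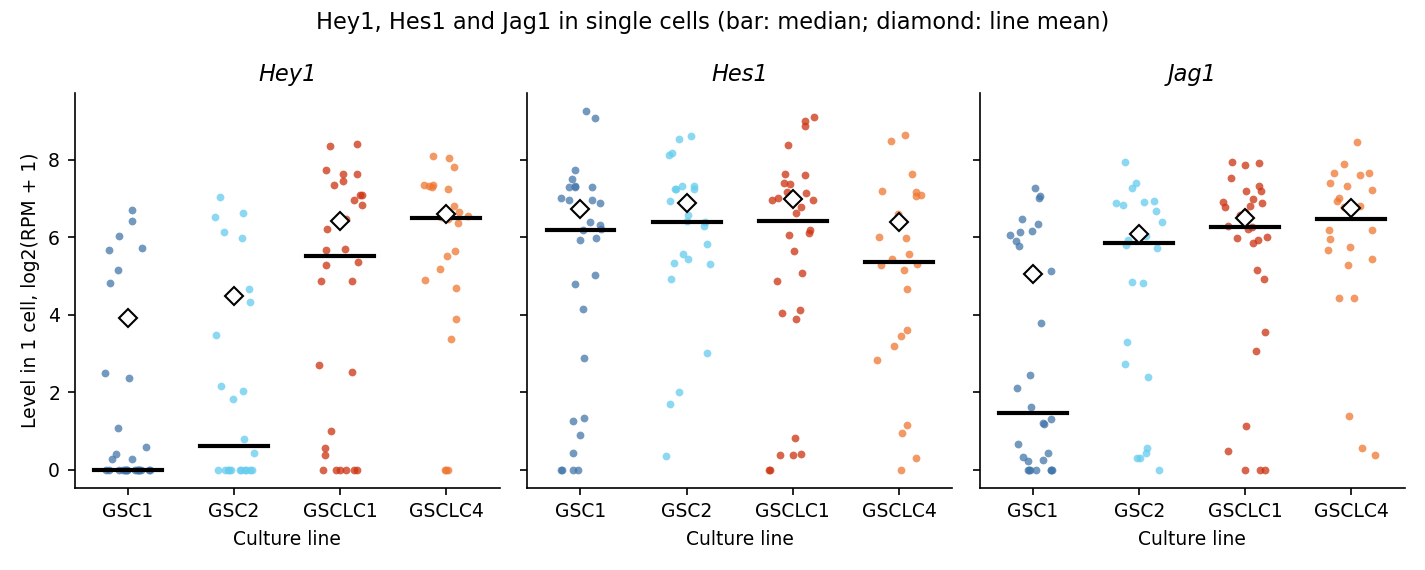
Level of Hey1, Hes1 and Jag1 in every cell, as log2(RPM + 1), by line, with the median as a bar and the line mean as a diamond. The median of Hey1 is at or near 0 in GSC1 and GSC2 and at 44.9 and 89.2 RPM in GSCLC1 and GSCLC4, and Hes1 spreads over the same range in all 4 lines.

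The other Hey genes were detected in few cells. Hey2 (chromosome 10, 30832359 to 30842783), which acts beside Hey1 in heart and vessel development, had means of 3.38 and 2.67 RPM in the GSC lines, against 9.05 and 4.19 RPM in the GSCLC lines. Its median was 0 in every line, and 2, 3, 2 and 2 cells had at least 5 RPM. A single cell held between 46.5% and 62.9% of the summed RPM of Hey2 in each line. Its line means were therefore set by 1 or a few cells, and the share of cells with the gene (6.67%, 12.5%, 6.67% and 8.33%) did not separate the types. Heyl (chromosome 4, 123233556 to 123249870) had means of 0.052, 1.46, 0.38 and 1.04 RPM and at least 5 RPM in 0, 2, 1 and 1 cells. Cells with at least 5 RPM of both Hey1 and Hey2 numbered 1, 2, 2 and 2.

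Hey2 was the target gene with a promoter in the RefSeq table used, and its sequence is shown for the RBPJ core motif it holds. The motif searched was TGGGAA on either strand in the 250 bases before the annotated start, and it occurred in 21.6% of 32851 such windows. In the Hey2 window (GRCm38.p6, chr10:30842784-30843033, minus strand) it lay 207 to 202 bases before the start, and capitals mark it as its reverse complement.
Hey2: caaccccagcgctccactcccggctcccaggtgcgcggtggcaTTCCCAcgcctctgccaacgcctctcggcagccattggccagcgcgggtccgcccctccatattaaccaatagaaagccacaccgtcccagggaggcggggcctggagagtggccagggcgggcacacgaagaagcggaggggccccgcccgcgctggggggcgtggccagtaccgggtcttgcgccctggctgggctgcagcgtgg
The match is a run of letters and not a measured site.

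The receptors were lower than Hes1 and showed no common order with Hey1. Notch1 (chromosome 2, 26457902 to 26503822) had means of 13.8, 22.6, 23.2 and 12.3 RPM in GSC1, GSC2, GSCLC1 and GSCLC4. Its cells ranged from 0 to 160.6, 153.02, 249 and 96.98 RPM around medians of 0.26, 0.93, 0.14 and 0.20 RPM. The highest and the lowest mean were again both in GSCLC lines, and the difference between the types was -0.06 ± 0.52 (log2, SE). Notch1 reached 5 RPM in 30%, 37.5%, 26.7% and 33.3% of the cells, with all intervals overlapping.

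Notch2 (chromosome 3, 98013538 to 98150367) was the most abundant receptor in every line. Its means were 23.6, 39.7, 49.6 and 24.8 RPM, its medians 1.10, 4.61, 14.4 and 4.98 RPM, and its highest cells 150.2, 276.5, 341 and 246 RPM. The type difference was 0.19 ± 0.44 (log2, SE) and changed sign without GSC1 (-0.17) or GSCLC1 (-0.29). Notch2 was at 5 RPM or more in 40%, 50%, 70% and 50% of the cells. GSCLC1 had the highest share, but its interval overlapped those of the other lines. Notch3 (chromosome 17, 32120820 to 32166896) was near 0, with means of 0.011 to 0.67 RPM and 2 cells of at least 5 RPM, 1 in GSC2 and 1 in GSCLC1.

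Jag1 (chromosome 2, 137081451 to 137116520), the ligand of the set with the highest level, was the one other member with the line order of Hey1. Its cells ranged from 0 to 153.4 and 245.7 RPM in the GSC lines, from 0 to 245.3 RPM in GSCLC1 and from 0.32 to 351 RPM in GSCLC4. The medians were 1.78, 56.9, 76.2 and 90.2 RPM and the means 32.1, 66.2, 89.3 and 106.6 RPM. GSC1 stood below the other lines, and the lower GSCLC mean was 1.35 times the higher GSC mean. The type difference was 1.06 ± 0.35 (log2, SE). It was 0.55 without GSC1 and 1.58 without GSC2, so its size depended on which GSC line stood for the type. The share of cells with at least 5 RPM of Jag1 was 40%, 75%, 83.3% and 87.5%. Here the largest step lay between GSC1 and the other lines, but the intervals of GSC1 (22.7% to 59.4%) and GSC2 (53.3% to 90.2%) overlapped in part.

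The Jag1 promoter is shown because HES and HEY proteins bind sites of the form CACGNG, of which this window held 2, searched on both strands. That motif occurred in 23.5% of the same 32851 windows, and the E-box CACGTG, which it includes, in 6.02%. In the Jag1 window (GRCm38.p6, chr2:137116521-137116770, minus strand) the matches, in capitals, were 1 on the reverse strand, 249 to 244 bases before the start, and 1 nearer the start on the forward strand.
Jag1: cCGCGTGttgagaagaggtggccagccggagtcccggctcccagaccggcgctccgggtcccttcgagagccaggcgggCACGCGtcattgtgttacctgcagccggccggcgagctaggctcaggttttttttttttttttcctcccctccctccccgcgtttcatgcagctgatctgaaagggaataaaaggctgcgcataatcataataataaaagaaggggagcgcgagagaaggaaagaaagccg
Notch2 and Notch3 had 1 such match each, Dll1 had 1 in each of its 2 windows, and the windows of Notch1, Jag2 and Hey2 had none. In all, 7 of the 10 members had a promoter in the table.

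The other ligands gave no such order. Jag2 (chromosome 12, 112907803 to 112929812) had means of 14.03, 17.5, 17.1 and 21.6 RPM and medians of 1.298, 4.26, 0.42 and 13.1 RPM. The type difference was 0.28 ± 0.48 (log2, SE). With the GSC1 cells of the lower serial numbers alone it was -0.0054, and with those of the higher numbers 0.61. Jag2 was at 5 RPM or more in 33.3%, 50%, 33.3% and 70.8% of the cells, with the highest share in GSCLC4. Dll1 (chromosome 17, 15367354 to 15376932) was the least expressed member. It was above 0 RPM in 1 GSC1 cell and 2 GSCLC1 cells, never above 0.42 RPM, and in 0 of the 24 cells of GSC2 and of GSCLC4. With 3 cells as the limit, a count of 0 in 24 cells allows a share of up to 12.5% of cells with a read, and the exact 95% interval reaches 14.2%. Neither limits the share of cells that express the gene.

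**Figure D3:**
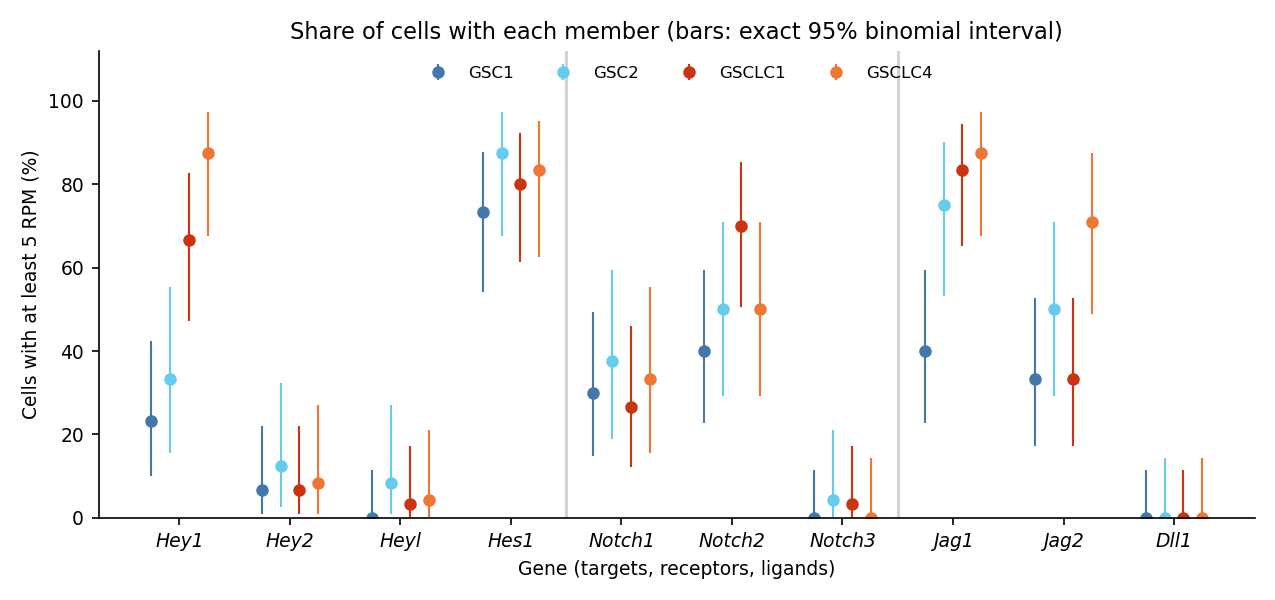
Share of cells with at least 5 RPM of each member in each line, with exact Clopper-Pearson 95% intervals for counting error as bars. Hey1 stands at 23.3% and 33.3% in the GSC lines and at 66.7% and 87.5% in the GSCLC lines. The share of Jag1 is lowest in GSC1 (40%), with an interval that overlaps that of GSC2 in part, and the shares of Notch1 lie within 26.7% to 37.5%.

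Most cells had RNA for a ligand, and many had a receptor as well. With 5 RPM as the level, a ligand was present in 17 of 30 GSC1, 20 of 24 GSC2, 28 of 30 GSCLC1 and 23 of 24 GSCLC4 cells. A receptor was present in 19, 16, 26 and 14 cells. A receptor and a ligand were present together in 11 GSC1 cells (36.7%, interval 19.9% to 56.1%), 13 GSC2 cells (54.2%, 32.8% to 74.4%), 25 GSCLC1 cells (83.3%, 65.3% to 94.4%) and 14 GSCLC4 cells (58.3%, 36.6% to 77.9%). The intervals of GSC2 and GSCLC4 overlapped almost wholly, and that of GSCLC1 lay above that of GSC1. Where both are common, many cells hold both with or without a link, so these joint counts are not read as linked expression. Among the receptors, Notch1 and Notch2 were found together in 2, 5, 3 and 6 cells. Jag1 and Jag2 were found together in 5, 10, 7 and 15 cells.

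Of the 7, 8, 20 and 21 cells with at least 5 RPM of Hey1, Hes1 was at that level in 6, 7, 17 and 17, and Jag1 in 6, 6, 18 and 19. Among all cells of the lines Hes1 was at that level in 22 of 30, 21 of 24, 24 of 30 and 20 of 24, and Jag1 in 12, 18, 25 and 21, so that most cells had Hes1 with or without Hey1. A receptor was at that level in 4, 6, 17 and 12 of them. Hes1 without Hey1 was found in 16 of 30 GSC1 and 14 of 24 GSC2 cells, and in 7 of 30 GSCLC1 and 3 of 24 GSCLC4 cells. Hey1 without Hes1 was found in 1, 1, 3 and 4 cells. These counts describe single lines and were not tested.

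Whether other targets followed Hey1 from cell to cell was described by the Spearman correlation of RPM across the cells of each line, averaged over the 4 lines. The cells of a line share a culture, and Hey1 itself had correlations of 0.19, -0.01, -0.18 and 0.04 with estimated depth and of 0.16, 0.10, 0.13 and 0.01 with the number of detected genes (GSC1, GSC2, GSCLC1 and GSCLC4, n = 30, 24, 30 and 24 cells). Hes1 had 0.15, 0.18, 0.03 and 0.00, with a mean of 0.09. Nrarp, a feedback inhibitor and Notch target, had 0.28, -0.46, 0.48 and 0.21, with a mean of 0.13 over values of both signs. Both means lay inside the central range of all 7890 genes that were above 0 RPM in at least 50% of the cells of every line, whose median was 0.0090 and whose 2.5 to 97.5 percentiles ran from -0.18 to 0.21. In sparse values such as these a weak correlation is no finding.

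The receptors and ligands gave the same picture with 1 exception at the edge. Notch1 had a mean correlation of 0.07 with Hey1, and Notch2 one of -0.09, the latter from -0.49 in GSC1 and 0.24 in GSC2. Jag2 had 0.06, -0.29, -0.31 and -0.28, with a mean of -0.20, below the 2.5 percentile of all genes. Given depth and detected genes, the mean was -0.22. With the GSC1 cells of serial number under 129 alone it was -0.25. With those of 129 or above alone it was -0.16, so its size depended on the GSC1 cells used. The percentiles were taken with all GSC1 cells, so the place of Jag2 among all genes was not measured for either run. Jag1, which shared the line order of Hey1, had 0.25 in GSC1 and -0.01, -0.09 and -0.08 in the other lines, with a mean of 0.01. In GSC1 Jag1 was at 5 RPM or more in 6 of the 7 cells with Hey1 at that level, and 6 further cells had Jag1 without Hey1.

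**Figure D4:**
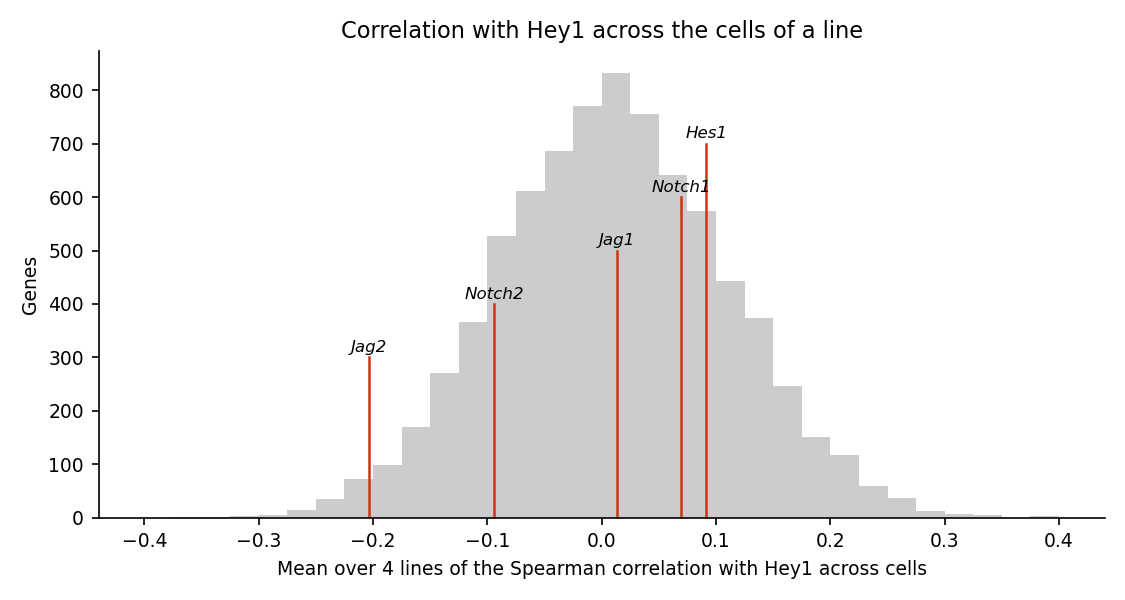
Number of genes by their mean within-line Spearman correlation with Hey1 across cells, for 7890 genes, with 5 members marked by vertical lines whose heights carry no value. Hes1 (0.09), Notch1 (0.07), Jag1 (0.01) and Notch2 (-0.09) lie in the body of the distribution and Jag2 (-0.20) at its lower edge.

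Among the 7890 ranked genes, those whose pattern across cells was most like that of Hey1 came from outside the pathway. Members above 0 RPM in too few cells (Hey2, Heyl, Notch3 and Dll1) were not ranked. The pathway lists held only 10 members and 61 further genes, and not all of these were ranked. With so small a share of the ranked genes, their absence from the top is not read as a result about the pathway. The 8 highest mean correlations were those of Map3k2, a MAP kinase kinase kinase (0.40), Tsnax, which encodes the RNA-processing partner of translin (0.39), Pigt, a subunit of the enzyme that attaches GPI anchors (0.38), Exoc6b, a subunit of the exocyst (0.34), Ndufaf4, an assembly factor of mitochondrial complex I (0.33), Nif3l1 (0.33), 4921515J06Rik (0.33) and Ccdc101, a subunit of the SAGA complex (0.33). The eighth had 0.328 and the next gene 0.324. All 8 were positive in each of the 4 lines, which picking the highest means over those lines favours. Single lines were as low as 0.02 (Ccdc101 in GSCLC1), and Pigt had line means of only 2.24 to 3.00 RPM. The 8 are the highest of 7890 values and are named as a description.

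The design allowed a comparison of the types over the lines, fitted with limma across the genes whose line mean reached 5 RPM in 2 lines or more. Of the 10 members, 6 passed that filter: Hey1, Hes1, Notch1, Notch2, Jag1 and Jag2. Over all 10526 tested genes 8 were past the adjusted p threshold of 0.05 (0.076%), 6 higher in GSCLC lines (0.057%) and 2 lower (0.019%). Hey1 was chosen as 1 of these 8, so its place among them was fixed by the choice and nothing is read from it. Which genes were past the threshold depended on the setting, and in 8 of 14 alternatives Hey1 was not among them, including those without GSC1, without GSCLC1 and without GSCLC4 and those with either run of GSC1 cells alone. Its log2 difference was between 1.86 and 3.12 in all 14. Both GSCLC means lay above both GSC means for 2 of the 6, Hey1 and Jag1, against 22% of all tested genes. The order of Hey1 was fixed by its choice, so this count is not read as a result about the members.

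The rest of the pathway was described with 61 further genes, grouped by role, of which 42 passed the filter. None passed the limma threshold in either direction, the lowest adjusted p being 0.512, against 0.076% of all tested genes past it. With so few calls over all genes, a count of 0 among 42 is not read as a result about the list. At an unadjusted p under 0.05 there were 5, or 11.9% of the 42, against 8.83% of all tested genes. The log2 difference was positive for 27 of the 42, with a median of 0.12, against 5664 of 10526 genes and a median of 0.04 over all tested genes. With no filter it was positive for 35 of the 61 with a median of 0.07. Both GSCLC means lay above both GSC means for 14 of the 42 (33.3%, against 22% of all tested genes) and below for 5 (11.9%, against 17.3%). One of the 42, Hes6, passed the filter through the GSCLC lines alone.

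On the ligand and receptor side no gene passed the threshold. Dll3, a divergent Delta-like protein that acts inside the cell, had means of 2.15 and 7.74 RPM in the GSC lines, against 8.56 and 15.1 RPM in the GSCLC lines (log2 1.24 ± 0.74 SE, limma adjusted p = 0.663). Dll4, Dlk1, Dlk2 and the receptor Notch4 did not pass the filter. Mib1, the ubiquitin ligase that lets a ligand-bearing cell pull on the receptor, had 106.6 and 77.2 RPM in the GSC lines and 58.7 and 58.9 RPM in the GSCLC lines (log2 -0.62 ± 0.28, adjusted p = 0.565), and its relative Mib2 a log2 difference of 0.63 ± 0.91 from means of 1.57 to 12.7 RPM. Of the enzymes that put sugars on Notch receptors, Pofut1 had a log2 difference of 0.83 ± 0.70 and Poglut1 one of -0.33 ± 0.31.

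The receptor-cutting enzymes held the largest differences among the other genes outside the list of targets, in both directions. Psen2, a catalytic subunit of gamma-secretase, had 2.36 and 5.29 RPM in the GSC lines, against 11.98 and 14.4 RPM in the GSCLC lines (log2 1.62 ± 0.68, limma adjusted p = 0.547). Furin, the protease that processes the receptor on its way to the cell surface, had 19.4, 10.4, 6.51 and 2.55 RPM (log2 -1.56 ± 0.69, adjusted p = 0.557). The lines of the 2 types did not overlap for either gene, but neither difference passed the threshold.

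In the nucleus the picture was the same. Ep300, a histone acetyltransferase that joins the Notch activation complex, had 19.1, 32.2, 47.2 and 52.5 RPM (log2 0.98 ± 0.38, limma adjusted p = 0.512), and the Mastermind coactivator Maml1 a log2 difference of -0.50 ± 0.41. Rbpj itself, named here after its values were seen, had 131.5, 119.1, 211 and 145.6 RPM (log2 0.48 ± 0.24, adjusted p = 0.595). Among the corepressors, Hdac2 had a log2 difference of 0.42 ± 0.19 (adjusted p = 0.558) and Spen one of -0.54 ± 0.40. Of the genes that dampen the signal or turn over the receptor, Numbl had -0.22 ± 0.63 and Dtx2 0.22 ± 0.24.

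The remaining Hes genes, Nrarp and Dtx1, listed together as other targets, were mostly too low to test. Of these 7, 5 did not pass the filter (Hes2, Hes3, Hes5, Hes7 and Dtx1). Whether each of the 7 answers to Notch in these cells was not tested. Those that did not pass had no common order. Hes7 had 2.08 and 2.09 RPM in the GSC lines, against 0.21 and 0.27 RPM in the GSCLC lines. Hes5 had 10.6 RPM in GSC1, against 1.71, 3.56 and 4.06 RPM in GSC2, GSCLC1 and GSCLC4. Dtx1 had 0.34 and 0.62 RPM in the GSC lines, against 2.26 and 5.86 RPM in the GSCLC lines. Hes2 and Hes3 did not exceed 0.21 RPM. Nrarp had 11.2 and 13.7 RPM in the GSC lines, against 21.1 and 18.1 RPM in the GSCLC lines (log2 0.62 ± 0.50, limma adjusted p = 0.777). Hes6, a Hes gene that opposes HES1, was at 0 RPM in GSC1 and had 3.47, 5.74 and 7.97 RPM in GSC2, GSCLC1 and GSCLC4 (log2 1.88 ± 0.97, adjusted p = 0.617). Neither passed the threshold. Both GSCLC means of Nrarp lay above its GSC means, and nothing is read from the order of Hes6, which the filter fixed.

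**Figure D5:**
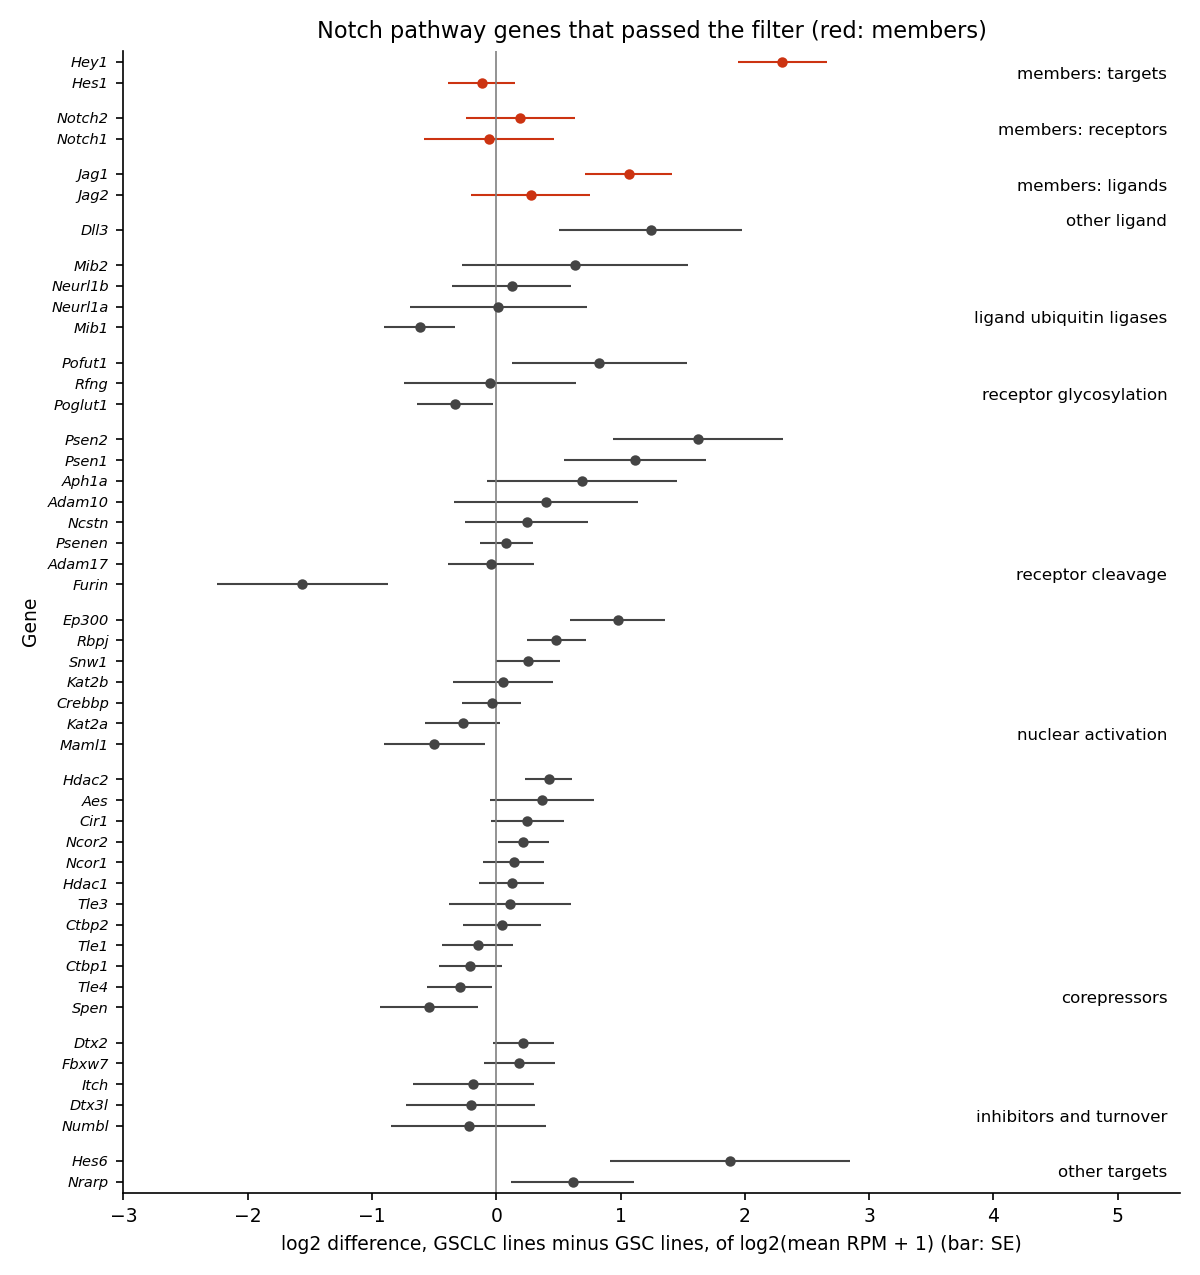
The log2 difference between GSCLC and GSC lines, on the scale of log2(mean RPM + 1), with its SE as a bar, for the 6 members (red) and the 42 other Notch pathway genes (grey) that passed the filter, grouped by role. Hey1 (2.30) lies furthest to the right, Furin (-1.56) furthest to the left, and the corepressors spread from -0.54 to 0.42.

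Markers of other testis cells were read beside these results. The 14 Sertoli cell markers summed to means of 34.7 and 9.45 RPM in the GSC lines, against 34.8 and 70.1 RPM in the GSCLC lines, and 1, 0, 3 and 4 of the 14 had at least 5 RPM. Amh and Cst12 were at 0 in all 4 lines, Gdnf was at 0 in GSC1, GSC2 and GSCLC1, and Wt1 had 3.94, 0.55, 11.3 and 25.8 RPM. The list had no common order. Aard and Inha were among those that, like Wt1, were highest in GSCLC4 (11.9 and 7.40 RPM). Clu had 20.1, 3.11, 9.84 and 15.1 RPM and Sox9 4.86, 0.94, 3.40 and 3.38 RPM, both highest in GSC1. The part of these transcripts in the Hey1 values was not tested. Leydig and peritubular markers summed to 335, 54.98, 15.99 and 14.7 RPM (43.1 RPM in GSC1 without the cell of fewest detected genes), and fibroblast and feeder markers to 1604, 265, 190 and 317 RPM (394 RPM in GSC1 without it). Endothelial and blood markers summed to 9.65 to 25.8 RPM. Without that cell the log2 difference of Hey1 was 2.28 and that of Jag1 1.04.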

How the data were processed

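SC3-seq was run on single cells of 4 lines. The authors deposited expression signal as RPM for 26218 genes and, on top of the scaling, 92 ERCC spike-ins (left out here; 6440 empty entries read as not detected). The tools named in the submitters' processing notes are TopHat 1.4.1, Cufflinks 2.2.0 and cutadapt 1.3, with the build mm10. Cells were assigned to lines by their titles. Depth was estimated from the most frequent value above 0, taken as 1 read, with a median of 3.45 M reads per cell. In a cell, 85.6% to 92.4% of values were whole reads within 0.05 read, so no count model was fitted. Values of the members were whole reads except for 1 value of Jag2 and 2 of Dll1.

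Line means of RPM were compared as log2(mean RPM + 1) with limma 3.58.1 (lmFit, eBayes with a variance trend) in R 4.3.3, for the 10526 genes with at least 5 RPM in at least 2 lines, with Benjamini-Hochberg adjustment and a threshold of 0.05. The SEs and p-values use the spread between these lines, with the variance of each gene drawn towards the trend over all tested genes. They therefore do not measure the spread of 1 gene alone: for Jag2 the SE was 0.48 with the trend and 0.30 without it. The fit was tested on simulated data. The members and gene lists were chosen with earlier results of these data known. The genes named were the members, in each list any gene past the threshold and the 2 tested genes with the largest absolute difference, the 8 genes most correlated with Hey1, and 4 germ cell markers. One gene that this rule names is not reported here. Positions and promoters are those of RefSeq for GRCm38.p6, and all 10 members matched. Alternatives covered the pseudocount, filter, summary over cells, scaling, variance model, GSC1 runs and left-out lines.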

Additional observations from a re-analysis of the deposited data

How the results depend on the processing

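Hey1 was higher in the GSCLC lines in all 14 alternatives run, with a log2 difference of 1.86 at a pseudocount of 10 and 3.12 for the mean over cells of log2(RPM + 1), the ends of its range. That last summary also moved the median of all genes from 0.04 to 0.19. Hey1 was chosen on this contrast and the alternatives reuse the same cells, so its constant sign is not read as support. The number of genes past the limma threshold changed far more: 8 as reported, 14 at a pseudocount of 10, 3 at 0.1, 0 with no filter (1388 at an unadjusted p under 0.05), 23 with a filter of 20 RPM, 22 for the mean of log2 values, 0 without a variance trend (871 unadjusted), 4 with the GSC1 cells of serial number under 129 and 2 with those of 129 or above. Leaving out a line gave 3 to 19, with 19 and 15 on omitting GSC2 or GSCLC1 and 5 and 3 on omitting GSC1 or GSCLC4, where the lone line of a type is assumed to vary like the others. The cause was not tested. The Notch list had 0 calls in every alternative with 2 lines per type, where 0 to 23 genes were called over all tested genes. At so low a share of calls, that 0 is not read as a result about the list. Its median ran from 0.02 to 0.28 over the 14 alternatives. Differences of Hes1 (-0.42 to 0.18), Notch1 (-0.49 to 0.37), Notch2 (-0.29 to 0.68) and Jag2 (-0.0054 to 0.61) took both signs, and that of Jag1 ran from 0.55 to 1.86. The share of GSC1 cells with Hey1, 46.7% above 0 RPM, was 23.3% at 5 RPM or more and 23.3% at 20 RPM or more, and that of GSC2 25% at 20 RPM or more. With 2 lines per type and 24 to 30 cells per line, moderate differences can fall short of the threshold. No paired analysis was possible because the lines share no replicate numbers between types.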

Other observations

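BMP and TGF-beta signals act on Hey1 and on the Id genes in other cells, and 26 genes of these pathways were read beside the Notch genes. Of the 19 that passed the filter none passed the limma threshold in either direction (lowest adjusted p = 0.495), against 0.076% of all tested genes, and 1 had an unadjusted p under 0.05, against 8.83% of all tested genes. The log2 difference between GSCLC and GSC lines was positive for 8 of the 19, with a median of -0.11, against 5664 of 10526 and 0.04 over all tested genes. With no filter it was positive for 11 of the 26, with a median of -0.10. The sign of the filtered median turned with the mean over cells of log2 values (0.21), with the GSC1 cells of the lower serial numbers (0.10) and without GSCLC4 (0.04).

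Among response genes, Id1, an inhibitor of helix-loop-helix factors, had means of 38.9, 14.9, 26.8 and 40.95 RPM in GSC1, GSC2, GSCLC1 and GSCLC4 (log2 0.44 ± 0.49 SE). The lines of the 2 types overlapped for it. Among receptors, Bmpr1a had 148.9, 176.1, 119.4 and 88.5 RPM (log2 -0.65 ± 0.24, limma adjusted p = 0.495), with both GSCLC lines below both GSC lines, and Tgfbr2 31.98, 10.5, 7.71 and 17.1 RPM (log2 -0.64 ± 0.63).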
